A study of Mus musculus with 40 samples.

Results

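The genes described here encode the standing parts of the 26S proteasome, the large protease that degrades proteins tagged with ubiquitin. They were taken from the gene count table by their names, as 30 of its 39056 genes. The 20S core class holds 11 genes, 7 of alpha subunits (Psma1 to Psma7) and 4 of non-catalytic beta subunits (Psmb1 to Psmb4). The 19S cap class holds 18 genes, of which 10 encode its base (Psmc1 to Psmc6, Psmd1, Psmd2, Psmd4 and Adrm1) and 8 its lid (Psmd3, Psmd6, Psmd7, Psmd8, Psmd11, Psmd12, Psmd13 and Psmd14). The remaining gene, Psmf1, encodes PI31, a protein first described as an inhibitor of the core, and was counted in neither class.

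RNA was sequenced from developing oligodendrocytes, the brain cells that go on to make myelin, in 10 groups of 4 libraries. Treated groups were cells given the cytokine interferon gamma (IFN-gamma) at 200 U/ml for 1, 8, 24 or 48 h, and cells given thapsigargin, labelled as 200 uM, for 1 or 8 h. Thapsigargin blocks the calcium pump of the endoplasmic reticulum (ER) and is used to cause ER stress. Their controls were untreated cells collected at 1, 8, 24 and 48 h. All cells, controls included, came from wild-type C57BL/6 mice labelled as 6 to 7 days old. Progenitors were immunopanned from the cortices of 6-day-old pups, taken through 2 passages and left to differentiate for 12 to 14 h before plates were assigned to a treatment. The tissue label reads whole brain, while the protocol names cortex. The labels do not say whether the 4 libraries of a group are separate animals or cultures, so the p-values speak only of the variation among libraries, which may be technical.

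In the proteasome, a chamber formed by stacked rings of alpha and beta subunits encloses the protease sites, and the cap recognises ubiquitin, unfolds the substrate with a ring of ATPases and feeds it through the alpha gate. Interferon gamma is known for replacing the constitutive catalytic beta subunits with the inducible ones encoded by Psmb8, Psmb9 and Psmb10, which forms the immunoproteasome and alters the peptides presented on major histocompatibility complex class I. The core members described here are shared by both forms of the particle. When the proteasome is short of capacity, the ER-bound transcription factor encoded by Nfe2l1 is known to be released and to raise transcription of core and cap genes together.

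The libraries held 13165483 to 22651092 reads on genes. Treatment targets matched the labels: Irf1, an early interferon target, was higher by 5.38 ± 0.13 on the log2 scale (SE) with IFN-gamma at 8 h than in untreated cells, and Ddit3 and Hspa5, markers of ER stress, were higher by 6.42 ± 0.16 and 3.96 ± 0.08 with thapsigargin at 8 h. Summed oligodendrocyte lineage markers ran from 2780 to 19600 CPM (counts scaled to the total of each library) over the 40 libraries, astrocyte markers from 185 to 476, neuron markers from 68.2 to 365, and microglia markers from 1.2 to 4.01 CPM. One library stood apart, IFN-gamma 1 h replicate 2, with a scaling factor of 0.748 where the next lowest was 0.918. The summed level of Y-linked genes was under 50 CPM in 8 of 16 IFN-gamma libraries and 2 of 8 thapsigargin libraries, against 0 of 16 untreated libraries. Each group also had 2 libraries among the lower 20 library numbers and 2 among the upper 20, a split that the labels do not call a batch.

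All 30 genes were well measured, with 413 to 10416 reads in every library, and all passed the filter on low counts that left 15135 genes for testing. Per length of transcript, core genes were the more abundant class. In untreated cells at 1 h the median of the 11 core genes was 138 RPKM (reads scaled to transcript length and library size, from the transcript estimates) and that of the 18 cap genes 80.7 RPKM. The highest per-length level was that of the alpha gene Psma7, at 192 ± 5.04 (SD, n = 4), followed by the beta gene Psmb4 at 184 ± 21.5, and these neighbours overlapped. The lowest were Psmd11 of the lid at 26.6 ± 3.2 and Psmf1 at 13.6 on the same scale. Psma2 was the lowest of the core genes at 61.9 ± 2.38 RPKM.

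The ratio of core to cap transcripts was higher with IFN-gamma from 8 h on, and lower with thapsigargin, than in untreated cells. The CPM of the 11 core genes was summed in each library and divided by the sum of the 18 cap genes, a ratio that library scaling cannot change. With IFN-gamma at 8 h the ratio was 0.692, 0.682, 0.673 and 0.667, against 0.611, 0.604, 0.559 and 0.554 in untreated cells at 8 h. At 24 h it was 0.669, 0.673, 0.651 and 0.656 with IFN-gamma and 0.582, 0.574, 0.576 and 0.562 in untreated cells. At 48 h it was 0.649, 0.637, 0.651 and 0.634 with IFN-gamma, against 0.585, 0.583, 0.585 and 0.564 in untreated cells. Every IFN-gamma library of 8, 24 and 48 h lay above all 16 untreated libraries, whose highest value was 0.611. The mean ratio was 16.6% above the untreated mean at 8 h, 15.4% above it at 24 h and 11% above it at 48 h. At 1 h IFN-gamma and untreated libraries overlapped, with means of 0.569 ± 0.019 and 0.591 ± 0.013 (SD, n = 4 each).

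With thapsigargin the ratio lay below that of untreated cells, by a smaller margin. At 1 h it was 0.571, 0.555, 0.523 and 0.535 with thapsigargin, against 0.592, 0.59, 0.606 and 0.576 in untreated cells, without overlap. At 8 h the thapsigargin values of 0.559, 0.557, 0.547 and 0.524 overlapped those of untreated cells given above, and the means differed by 6.07%. No p is attached to these ratios, since the genes were chosen with results of these libraries known. The differences kept their direction in both ranges of library numbers. For IFN-gamma at 8 h the ratio was higher by 0.0798 among the lower numbers and by 0.114 among the upper numbers. For thapsigargin it differed by -4.71% and -10.5% at 1 h, and by -8.2% and -3.74% at 8 h, in the lower and the upper range. Giving each gene the same weight in place of summing CPM left the IFN-gamma ratio 15.5%, 13.4% and 10.9% above untreated at 8, 24 and 48 h. With that weighting the thapsigargin ratio differed from untreated by -7.59% at 1 h and -7.91% at 8 h, and at 8 h the groups no longer overlapped.

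**Figure D1:**
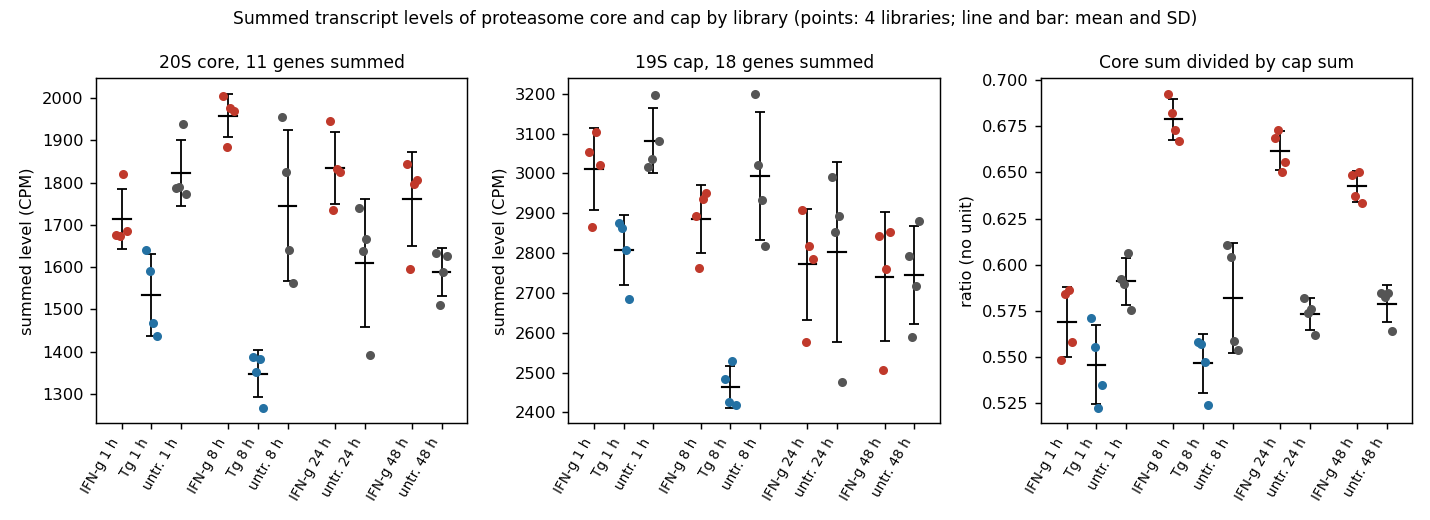
Summed levels of the 11 core genes and the 18 cap genes (CPM, TMM-scaled; vertical axes do not start at 0) and the ratio of core to cap, in 40 libraries. Points are libraries, with IFN-gamma in red, thapsigargin (Tg) in blue and untreated (untr.) in grey; lines and bars are the mean and SD of 4. The IFN-gamma libraries of 8, 24 and 48 h lie between 0.634 and 0.692 in the ratio, above all untreated libraries.

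The core and cap sums were also compared on their own. With IFN-gamma at 8 h the core sum was 1958 ± 51 CPM, against 1745 ± 178 CPM in untreated cells, a difference of 12.2%, and the cap sum was 2886 ± 85.2 against 2993 ± 160 CPM, a difference of -3.6%. At 24 h the core sum differed by 14% and the cap sum by -1.1%, and at 48 h by 10.8% and -0.178%. At 8, 24 and 48 h IFN-gamma and untreated libraries overlapped in the core sum and in the cap sum. At 8 h these values differed between the library ranges. Among the lower numbers the core sum differed from untreated by 2.88% and the cap sum by -9.07%. Among the upper numbers the core sum differed by 23.2% and the cap sum by 2.32%. The mean core sum of untreated cells at 8 h was 1890 CPM in the lower range and 1601 CPM in the upper. With IFN-gamma it was 1945 and 1972 CPM. At 24 h the core sum differed by 8.9% and the cap sum by -6.11% among the lower numbers. Among the upper numbers these were 19.7% and 4.36%. In the lower and the upper range the mean core sum at 24 h was 1689 and 1529 CPM in untreated cells. With IFN-gamma it was 1839 and 1829 CPM. The sums therefore do not settle which side of the ratio moved at 8 or 24 h. With thapsigargin at 8 h both sums lay below those of all 4 untreated libraries of 8 h, the core at 1347 ± 55.6 against 1745 ± 178 CPM and the cap at 2464 ± 51.8 against 2993 ± 160 CPM. The core sum differed by -27.6% among the lower numbers and -17.2% among the upper numbers, and at 1 h by -9.63% and -21.8%. With thapsigargin at 8 h the mean core sum was 1369 and 1326 CPM, against the same untreated libraries of 8 h. Fewer cells of a type and less RNA per cell cannot be told apart in bulk RNA.

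Promoter sequence was available in RefSeq (build GRCm38.p6) for 25 of the 30 genes, as 300 bases from 250 before to 50 after the start of the gene. Both strands were searched for motifs, of which 4 are given here. TGACNNNGC, the core of the antioxidant response element that NFE2L1 and NFE2L2 bind, was in 12% of the 25 promoters and 14% of all promoters of this length. The interferon response element core, GAAA, any 2 bases and GAAA, was in 8% of members and 3.99% of all. CCAAT, the NF-Y box, was in 44% of members and 41.1% of all, with 6 of 9 core promoters and 5 of 15 cap promoters holding it. TGATGNAA, the core of the ATF4 and CHOP composite site, was in 4% and 4.51%. No motif overlapped another in the 4 promoters shown, and a match is a description of the letters only. The promoters of Psmb4 and Psma2, the core genes with the largest rises under IFN-gamma at 8 h, are shown with that of Psmb3, the one core promoter with the interferon element although Psmb3 did not pass the test under IFN-gamma, and that of Psmc6, the one member that rose with thapsigargin. Capitals mark motif matches on either strand: CCAAT in Psma2 and Psmb3, the reverse complement of the interferon element in Psmb3, and the reverse complement of TGACNNNGC in Psmc6. Psmb4 held none of the 4 in this window. Psmb4 lies at chr3:94886909-94887208 on the minus strand, Psma2 at chr13:14612992-14613291, Psmb3 at chr11:97703184-97703483 and Psmc6 at chr14:45329574-45329873 on the plus strand, and each is printed 5′ to 3′ along its gene.
Psmb4: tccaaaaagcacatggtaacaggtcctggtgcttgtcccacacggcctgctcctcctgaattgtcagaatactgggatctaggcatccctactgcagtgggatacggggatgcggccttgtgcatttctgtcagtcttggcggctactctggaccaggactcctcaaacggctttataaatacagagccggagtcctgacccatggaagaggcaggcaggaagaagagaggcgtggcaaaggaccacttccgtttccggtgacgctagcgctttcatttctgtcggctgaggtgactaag
Psma2: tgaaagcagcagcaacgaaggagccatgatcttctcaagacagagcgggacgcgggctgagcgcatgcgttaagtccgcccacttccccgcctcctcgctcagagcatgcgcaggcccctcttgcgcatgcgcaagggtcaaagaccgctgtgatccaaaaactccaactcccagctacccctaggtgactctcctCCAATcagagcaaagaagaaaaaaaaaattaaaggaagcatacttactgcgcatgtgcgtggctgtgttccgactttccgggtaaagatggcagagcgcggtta
Psmb3: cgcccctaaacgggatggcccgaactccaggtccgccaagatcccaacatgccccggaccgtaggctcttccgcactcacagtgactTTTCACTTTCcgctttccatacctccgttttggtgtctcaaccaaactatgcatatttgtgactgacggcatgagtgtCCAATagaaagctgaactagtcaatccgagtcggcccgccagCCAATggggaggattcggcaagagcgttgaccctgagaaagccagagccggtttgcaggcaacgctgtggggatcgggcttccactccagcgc
Psmc6: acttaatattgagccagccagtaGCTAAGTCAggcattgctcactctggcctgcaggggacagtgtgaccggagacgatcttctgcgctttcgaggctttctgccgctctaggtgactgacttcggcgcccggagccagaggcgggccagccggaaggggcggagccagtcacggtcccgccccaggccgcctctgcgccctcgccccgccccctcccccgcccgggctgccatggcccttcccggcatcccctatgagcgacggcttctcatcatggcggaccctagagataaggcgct

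The comparison of IFN-gamma with untreated cells asked which subunit genes respond to the cytokine over 48 h of exposure. At 8 h 4 core genes rose (Psma2, Psma3, Psma4 and Psmb4), 1 base gene fell (Adrm1) and no cap gene rose, by edgeR's quasi-likelihood test at an adjusted p under 0.05. Of the cap genes 2 were higher at an unadjusted p under 0.05 and 1 by DESeq2, which called 3895 of the 15135 genes tested. The 5 called of 30 genes stand beside 25.2% of all tested genes called in this comparison, 13.1% higher and 12.1% lower, with 35.1% at an unadjusted p under 0.05. The 11 core genes had a median log2 fold change of 0.11 and the 18 cap genes one of -0.07, where the median of all tested genes was -0.03. Of the core genes 9 had positive fold changes, and of the cap genes 14 had negative ones.

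Psma2, an alpha-ring subunit, had 239, 227, 232 and 246 CPM with IFN-gamma at 8 h, against 216, 202, 176 and 161 CPM in untreated cells. All 4 treated libraries lay above all untreated ones, and the log2 fold change was 0.32 ± 0.08 (SE, adjusted p = 0.00162). Psma3, another alpha subunit, had 225, 211, 212 and 203 CPM with IFN-gamma and 185, 181, 179 and 166 CPM in untreated cells, again without overlap (0.26 ± 0.05, adjusted p = 0.00031). Psma4, also of the alpha ring, differed by 0.25 ± 0.05 with groups that did not overlap. Psmb4, a beta-ring subunit needed for assembly of the core, had 263, 242, 251 and 234 CPM with IFN-gamma, against 234, 199, 179 and 166 CPM in untreated cells. The lowest IFN-gamma library and the highest untreated one met at about the same level, and the difference of 0.35 ± 0.12 had an adjusted p of 0.035. That call did not survive the omission of replicate 1 or replicate 3 with IFN-gamma, or of replicate 3 or replicate 4 without it, and adjusted p was then 0.06 to 0.082.

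The values at 8 h also differed between library ranges. Among the lower library numbers alone no core gene passed the test at 8 h, the core median was -0.06 and the cap median -0.16 on the log2 scale. Among the upper numbers alone the core median was 0.27 and the cap median 0.04. Psma2 was higher by 0.13 (adjusted p = 0.288) in the lower range and by 0.51 (adjusted p = 0.00184) in the upper range, and Psma3 by 0.22 (adjusted p = 0.0508) and 0.27 (adjusted p = 0.0189). As given above, the untreated core sum of 8 h was 1890 CPM in the lower range and 1601 CPM in the upper. Each range fit held fewer libraries, and its share of all tested genes called is not given here. Whether the ranges differ was not tested. Marker sums moved with IFN-gamma at 8 h as well. The 6 neuron markers summed to 295 to 365 CPM with IFN-gamma, against 76.3 to 84.9 CPM in untreated cells, the 5 astrocyte markers to 399 to 440 against 284 to 363 CPM, and the 11 oligodendrocyte lineage markers to 4740 to 5570 against 7390 to 9410 CPM. The 4 fibroblast markers summed to 3.53 to 5.61 against 0.152 to 0.376 CPM. At 24 h the neuron sum was 176 to 231 with IFN-gamma, against 72.9 to 79.7 CPM in untreated cells, the astrocyte sum 442 to 476 against 269 to 318 CPM and the lineage sum 6090 to 7910 against 9320 to 12000 CPM. At 48 h the neuron sum was 160 to 221 against 73.8 to 89.2 CPM and the lineage sum 6730 to 10600 against 11900 to 19600 CPM. The astrocyte sums overlapped at 48 h, at 367 to 421 against 276 to 379 CPM. The fibroblast sum was 5.47 to 8.64 against 0.253 to 3 CPM at 24 h. At 48 h it was 8.08 to 10.1 against 0.116 to 0.877 CPM. The part of these marker sums in the result was not tested.

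**Figure D2:**
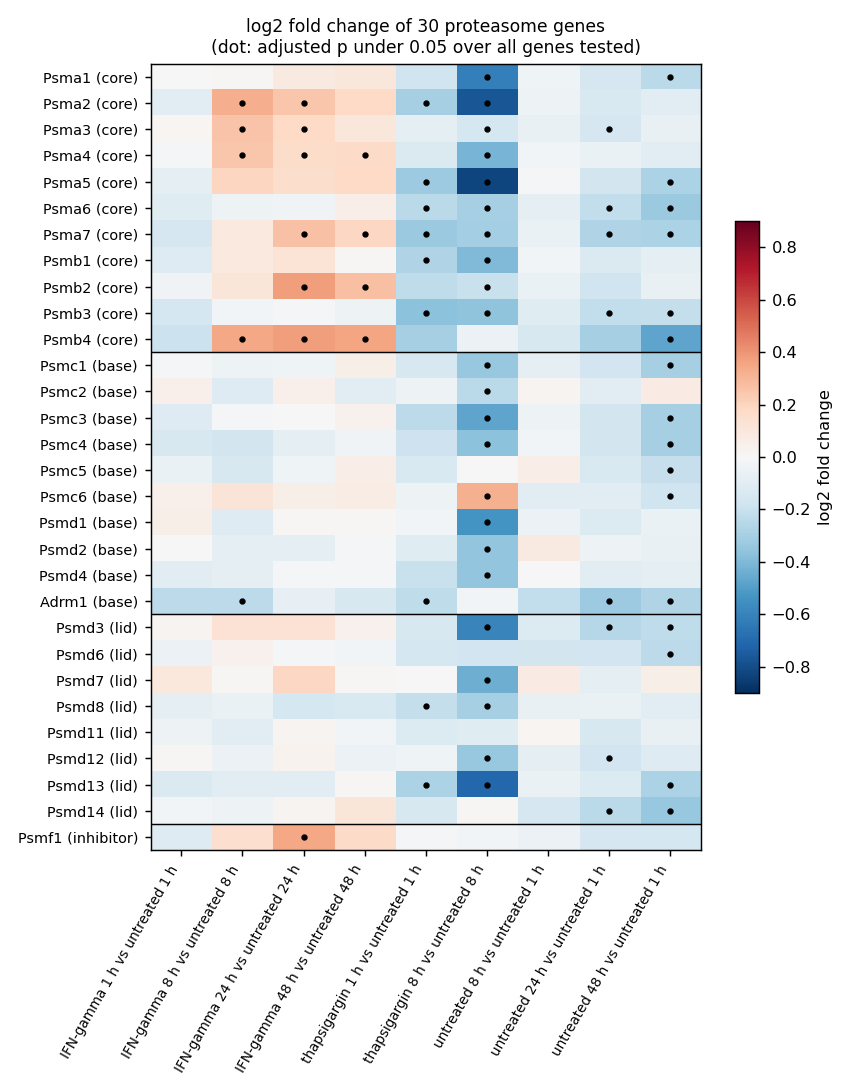
Log2 fold changes (colour) of the 30 genes, in rows by class, for 6 treatment comparisons and 3 comparisons of untreated cells with those of 1 h. Dots mark an adjusted p under 0.05 over the 15135 genes tested; under IFN-gamma the dots for higher levels lie on core genes and Psmf1, and under thapsigargin at 8 h 22 members are lower.

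At 24 h 7 members rose with IFN-gamma and none fell by edgeR's test, beside 23.1% of all tested genes called, 12.6% called higher and 34.3% at an unadjusted p under 0.05. DESeq2 called 8 members, 7 higher and 1 lower, beside 3642 of the 15135 genes tested. The 7 by edgeR were 6 core genes (Psma2, Psma3, Psma4, Psma7, Psmb2 and Psmb4) and Psmf1. Psmb2, a beta-ring subunit, had 155, 137, 160 and 156 CPM with IFN-gamma, against 125, 116, 116 and 112 CPM in untreated cells, without overlap (0.38 ± 0.09, adjusted p = 0.0012). Psmb4 had 269, 222, 212 and 206 CPM with IFN-gamma and 206, 190, 177 and 128 CPM in untreated cells. The groups touched at 206 CPM, and untreated replicate 4 was the lowest (0.37 ± 0.12, adjusted p = 0.0248). Psma7, an alpha subunit, had 204, 173, 184 and 193 CPM with IFN-gamma, against 167, 161, 163 and 138 CPM in untreated cells, without overlap (0.26 ± 0.07, adjusted p = 0.00741). The count of core genes that rose was 2 in place of 6 without untreated 24 h replicate 4, and 0 among the lower library numbers alone. It was 3 with counts summed from the isoform table and 3 with the Y-linked level as a covariate. The share of all tested genes called in each of these fits is not given here, and a range fit holds fewer libraries. No cap gene rose, with 2 higher at an unadjusted p under 0.05, 0 by DESeq2 and 1 in the fit with a block for library number range.

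Psmf1 was the one non-core member to rise. It had 36.8, 39.4, 40 and 38.1 CPM with IFN-gamma at 24 h, against 31.8, 30.7, 32.4 and 26.1 CPM in untreated cells, and all treated libraries were above all untreated ones (0.35 ± 0.07, adjusted p = 0.000531). At 8 h Psmf1 had 36, 34.6, 35.7 and 37.6 CPM with IFN-gamma and 35.8, 30.7, 30.4 and 32.8 CPM in untreated cells, which overlapped (0.15 ± 0.08, adjusted p = 0.155). At 48 h its means were 34 ± 2.3 and 30.1 ± 3.74 CPM, with an adjusted p of 0.0772.

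At 48 h 4 members were higher than in untreated cells of 48 h, all of the core (Psma4, Psma7, Psmb2 and Psmb4), and none was lower. Of all tested genes 36.8% were called and 16.9% called higher. Mean levels of Psmb4 and Psma7 with IFN-gamma, 198.6 and 177.2 CPM, were below the 215.1 and 189.4 CPM of untreated cells at 1 h. Those of Psma4 and Psmb2, 165.3 and 152.4 CPM, were above the 156.6 and 132.5 CPM of untreated cells at 1 h. Psmb4 had 239, 170, 193 and 193 CPM with IFN-gamma, against 151, 142, 159 and 168 CPM in untreated cells, where IFN-gamma replicate 1 was the highest and the groups did not overlap (0.36 ± 0.12, adjusted p = 0.0215). Psmb2 had 137, 139, 164 and 170 CPM with IFN-gamma and 143, 128, 115 and 119 CPM in untreated cells, with overlap (0.27 ± 0.09, adjusted p = 0.0133). Psma7 had 189, 162, 176 and 182 CPM with IFN-gamma, against 156, 146, 158 and 163 CPM in untreated cells, with overlap (0.19 ± 0.07, adjusted p = 0.0413). Without IFN-gamma 48 h replicate 1, without its replicate 4 or without untreated 48 h replicate 3 the count was 2 core genes, and without IFN-gamma 48 h replicate 2 it was 7. Each library range alone called 1 core gene, as did counts summed from the isoform table, and a fit of these 2 groups alone called 0. For these fits too, the share of all tested genes called is not given.

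At 1 h no member was called by edgeR's test, beside 1.29% of all tested genes. At an unadjusted p under 0.05 there were 2 members, both lower, beside 10.5% of all tested genes. DESeq2 called 0 members, beside 250 of the 15135 genes tested. Differences between times were tested directly. The IFN-gamma effect at 8 h exceeded that at 1 h for 4 core genes, by 0.54 ± 0.17 for Psmb4, 0.43 ± 0.11 for Psma2, 0.26 ± 0.07 for Psma4 and 0.24 ± 0.08 for Psma3, beside 12.4% of all tested genes whose effect differed and 7.39% whose effect was higher. This count of 4 was 0 in the lower library range, 2 in the upper range, 2 without a filter on low counts and 1 with counts summed from the isoform table. Shares of all tested genes called in those fits are not given. For the effect at 24 h against 8 h edgeR called 0 members (1 at an unadjusted p under 0.05, beside 14.5% of all tested genes, DESeq2 0, and 1.34% of all tested genes called). For 48 h against 8 h it also called 0 (1 at an unadjusted p under 0.05, beside 31.6% of all tested genes, DESeq2 0, and 17% of all tested genes called). Over all 15135 tested genes DESeq2 called 345 for 24 h against 8 h and 2943 for 48 h against 8 h.

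Cap genes were tested with the same depth and gave few calls under IFN-gamma. Adrm1, a ubiquitin receptor of the base, had 67.3, 63.9, 66.8 and 62.7 CPM with IFN-gamma at 8 h, against 81.8, 79.1, 78.3 and 68.1 CPM in untreated cells. Treated libraries were all below untreated ones (-0.24 ± 0.07, adjusted p = 0.012). The call was lost without any of 5 of these 8 libraries (adjusted p of 0.0526 to 0.0792), and in either library range alone. Adrm1 was also low at 1 h, at 76.2 ± 4.57 with IFN-gamma and 89.6 ± 4.28 CPM in untreated cells, without overlap, where its adjusted p was 0.12.

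Psmd4, also a ubiquitin receptor, had 158, 141, 160 and 161 CPM with IFN-gamma at 8 h, against 179, 177, 145 and 155 CPM in untreated cells, an overlap of groups (-0.08 ± 0.07, adjusted p = 0.413). Psmd14, the lid enzyme that cuts ubiquitin chains off substrates, had 152, 146, 154 and 145 CPM with IFN-gamma and 167, 158, 156 and 134 CPM in untreated cells (-0.04 ± 0.07, adjusted p = 0.696). Psmc4, one of the ATPases that unfold substrates, had 162, 151, 166 and 182 CPM with IFN-gamma, against 215, 189, 177 and 161 CPM in untreated cells (-0.17 ± 0.09, adjusted p = 0.188). None of the 3 had groups that separated. At 24 and 48 h their log2 fold changes lay between -0.08 and 0.11, and none was called.

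Immunoproteasome genes and PA28 genes rose by more than any member. Of the 3 immunoproteasome genes all rose at 8 h, with Psmb8 at 370 CPM with IFN-gamma and 0.738 CPM in untreated cells (8.91 ± 0.25), Psmb9 at 159 and 0.791 CPM (7.67 ± 0.19) and Psmb10 at 292 and 11.9 CPM (4.62 ± 0.12). None of the 3 constitutive catalytic genes (Psmb5, Psmb6 and Psmb7) was called by edgeR's test at 8 h (0 at an unadjusted p under 0.05), and their median log2 fold change was -0.07. Among 4 other activators Psme1 and Psme2, the subunits of the interferon-inducible PA28 regulator, rose by 2.93 ± 0.09 and 3.15 ± 0.09 at 8 h, and Psme4 by 0.19 ± 0.06. These counts at 8 h stand beside 25.2% of all tested genes called in either direction and 13.1% called higher, as does the next. Of 8 assembly chaperones tested 2 rose at 8 h, Psmg4 by 0.86 ± 0.11 and Pomp, which guides maturation of the core, by 0.44 ± 0.07. Both were also higher at 24 and 48 h, Psmg4 by 0.96 ± 0.11 and 1.13 ± 0.11 and Pomp by 0.34 ± 0.07 at either time. The lists of related genes were written with earlier results of these data known, so their counts are a description.

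The comparison of thapsigargin with untreated cells asked what happens to the same genes under ER stress. At 1 h 9 members fell and none rose, beside 8.79% of all tested genes called in either direction and 2.18% called lower. Of these 6 were core genes (Psma2, Psma5, Psma6, Psma7, Psmb1 and Psmb3), 1 a base gene (Adrm1) and 2 lid genes (Psmd8 and Psmd13). The core median was -0.27, the cap median -0.14 and the median of all tested genes -0.02 on the log2 scale. All 11 core genes and 17 of 18 cap genes had negative fold changes. Psmb3, a beta-ring subunit, had 118, 115, 98.8 and 102 CPM with thapsigargin, against 147, 139, 148 and 123 CPM in untreated cells, without overlap (-0.37 ± 0.08, adjusted p = 0.0034). Psma7 had 162, 159, 140 and 139 CPM with thapsigargin and 194, 186, 198 and 180 CPM in untreated cells, without overlap (-0.34 ± 0.07, adjusted p = 0.002). Psma5, of the alpha ring, had 107, 108, 97.4 and 86.7 CPM with thapsigargin, against 114, 117, 142 and 128 CPM in untreated cells, and the groups did not overlap (-0.33 ± 0.09, adjusted p = 0.0191). The count of 9 was 4 without untreated 1 h replicate 3 or thapsigargin 1 h replicate 4 and 5 without thapsigargin 1 h replicate 3, and it was 0 among the lower library numbers alone. With counts summed from the isoform table it was also 0, and in a fit of these 2 groups alone it was 14. The share of all tested genes called in each of these fits is not given, and a range fit holds fewer libraries.

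At 8 h of thapsigargin 22 members fell and 1 rose, beside 60.6% of all tested genes called, 31% lower and 29.6% higher. The 22 were 10 of 11 core genes, 7 of 10 base genes and 5 of 8 lid genes. The medians of the classes were near each other, at -0.36 for the core and -0.34 for the cap, with -0.01 for all tested genes. The core median was -0.49 in the lower library range and -0.205 in the upper range. Within the core the alpha genes lay further below untreated as a sum, at 792 ± 27.8 CPM with thapsigargin, against 1089 ± 93.3 CPM in untreated cells (27.2% lower), while the 4 beta genes summed to 555 ± 32.4 and 657 ± 85.3 CPM (15.5% lower) with groups that overlapped.

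Psma5 had the largest fall, with 73, 73.2, 71.7 and 63.3 CPM with thapsigargin, against 136, 129, 122 and 110 CPM in untreated cells (-0.82 ± 0.09, adjusted p = 1.45e-09). Psma2 had 112, 108, 118 and 104 CPM with thapsigargin and 216, 202, 176 and 161 CPM in untreated cells (-0.77 ± 0.08, adjusted p = 1.76e-10). Psmd13, a structural subunit of the lid, had 80.8, 71.6, 75.6 and 75.5 CPM with thapsigargin, against 140, 127, 121 and 108 CPM in untreated cells (-0.71 ± 0.09, adjusted p = 2.69e-08). In all 3 the groups were well separated, and the highest thapsigargin library was below the lowest untreated one. Psma1 fell by 0.62 ± 0.06, Psmd3 by 0.59 ± 0.06 and Psmd1, a large scaffold of the base, by 0.54 ± 0.05, each without overlap.

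Psmc6, an ATPase of the base ring, was the one member that rose. It had 229, 242, 235 and 221 CPM with thapsigargin at 8 h, against 193, 187, 192 and 172 CPM in untreated cells, and every treated library lay above every untreated one (0.32 ± 0.05, adjusted p = 3.56e-07). Psmc4, another ATPase gene of the base, went the other way, with 154, 135, 149 and 137 CPM with thapsigargin and 215, 189, 177 and 161 CPM in untreated cells (-0.37 ± 0.09, adjusted p = 0.000574). Of the 6 ATPase genes Psmc1, Psmc2, Psmc3 and Psmc4 fell and Psmc5 was not called. Psmd4 had 131, 125, 131 and 126 CPM with thapsigargin, against 179, 177, 145 and 155 CPM in untreated cells, also without overlap (-0.36 ± 0.07, adjusted p = 3.63e-05).

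Other members stayed near the untreated level at 8 h. Psmd14 had 154, 158, 159 and 150 CPM with thapsigargin, against 167, 158, 156 and 134 CPM in untreated cells (0.01 ± 0.07, adjusted p = 0.891). Adrm1 had 84.5, 74.8, 72.7 and 70.5 CPM with thapsigargin and 81.8, 79.1, 78.3 and 68.1 CPM in untreated cells (-0.02 ± 0.07, adjusted p = 0.806). Psmb4 had 206, 200, 183 and 161 CPM with thapsigargin, against 234, 199, 179 and 166 CPM in untreated cells (-0.05 ± 0.12, adjusted p = 0.727), and Psmf1 averaged 31.9 ± 2.01 and 32.4 ± 2.47 CPM. In all 4 the groups overlapped.

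**Figure D3:**
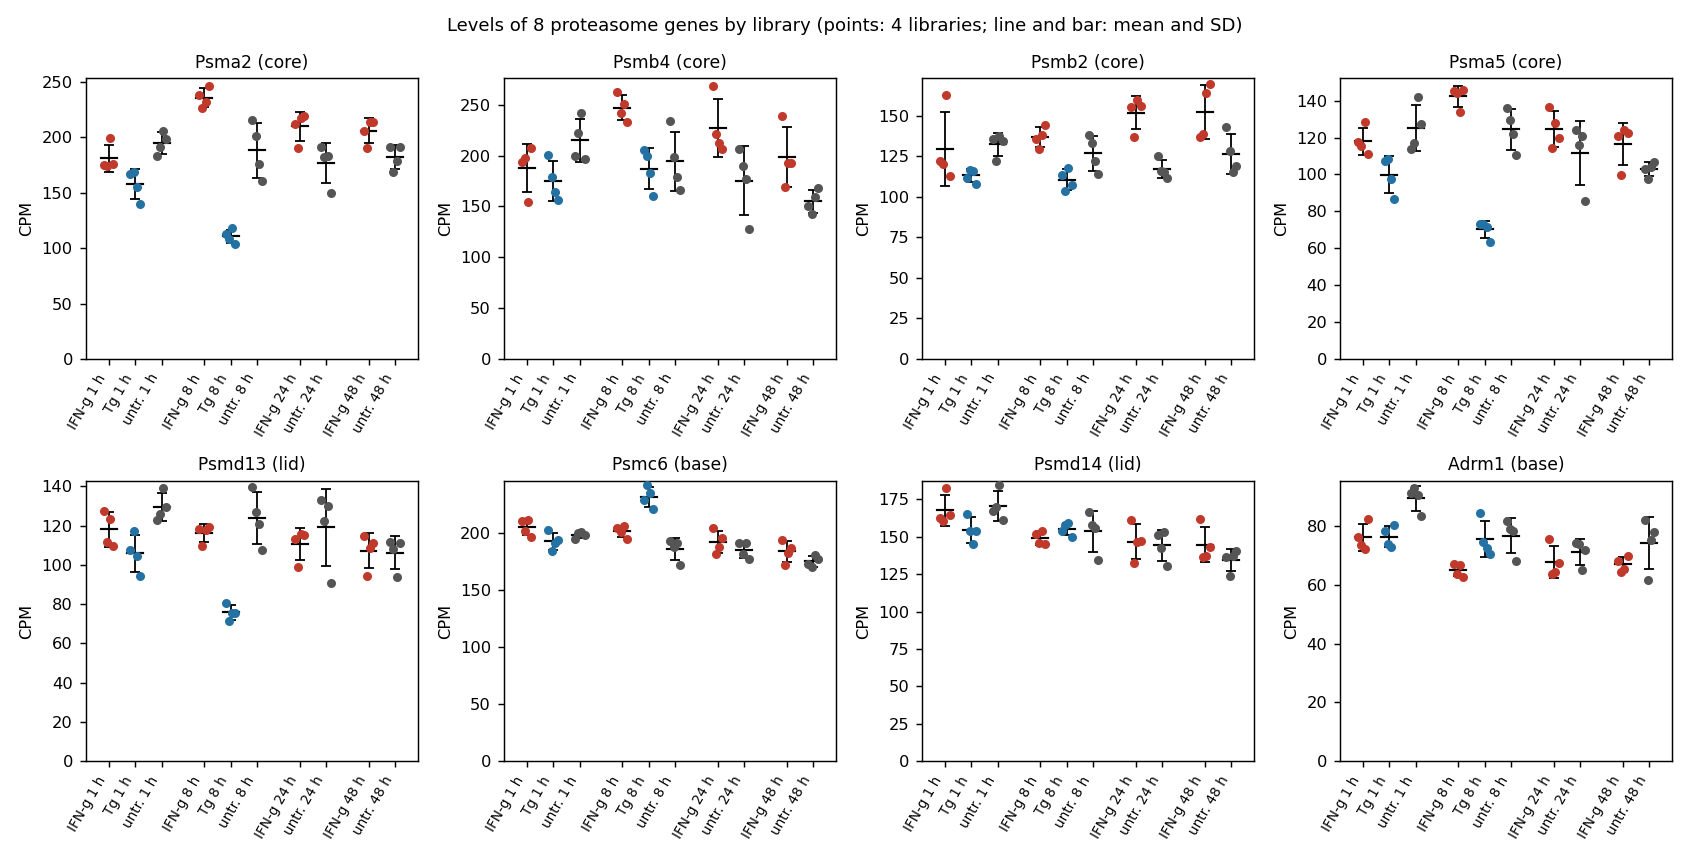
Levels of 8 members (CPM, axes from 0) in the 40 libraries, with IFN-gamma in red, thapsigargin (Tg) in blue and untreated (untr.) in grey. Points are libraries and lines and bars the mean and SD of 4; Psma2, Psma5 and Psmd13 lie lowest with thapsigargin at 8 h, where Psmc6 lies highest and Psmd14 does not separate from untreated.

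The thapsigargin effect differed between 8 h and 1 h for 10 members, beside 47.4% of all tested genes, 24.8% lower and 22.7% higher. It was lower at 8 h for 9 (Psma1, Psma2, Psma4, Psma5, Psmd1, Psmd3, Psmd7, Psmd12 and Psmd13), by 0.51 ± 0.07 on the log2 scale for Psmd1 and 0.5 ± 0.13 for Psma5, and higher for Psmc6, by 0.36 ± 0.07. At 1 h Psmd1 and Psmd3 differed from untreated by -0.02 and -0.15 and were not called. For Psma7 and Psmb3, whose falls at 1 h were among the largest, no difference between times was called. The count of 10 was 16 in the lower library range and 4 in the upper range. The share of all tested genes called in the range fits is not given here. The core median of the difference, -0.08 over all libraries, was -0.31 in the lower range and 0.11 in the upper range. The oligodendrocyte lineage marker sum moved with thapsigargin too, at 2780 to 3700 CPM at 8 h against 7390 to 9410 CPM in untreated cells, as did the neuron sum at 181 to 197 against 76.3 to 84.9 CPM and the astrocyte sum at 185 to 210 against 284 to 363 CPM, and the part of these in the fall of the members was not tested.

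Of 12 genes of the NFE2L1 pathway 9 rose and none fell with thapsigargin at 8 h, where 29.6% of all tested genes were called higher and 60.6% in either direction. Nfe2l1 itself had a mean of 412 CPM with thapsigargin and 107 CPM in untreated cells (1.94 ± 0.07), and Mafg, a partner of NFE2L1 on DNA, rose by 1.33 ± 0.08. Syvn1 and Sel1l, components of the ER ligase that turns over NFE2L1 and other ER proteins, rose by 3.21 ± 0.1 and 3.36 ± 0.07. Of 8 assembly chaperones tested 4 fell and 1 rose, a share near that of all tested genes, and Pomp had 64.5 CPM with thapsigargin and 126 CPM in untreated cells (-0.97 ± 0.07). Of the other cap-associated genes Sem1, a small subunit of the lid, fell by 0.79 ± 0.08 and Usp14, a ubiquitin protease bound to the cap, by 0.38 ± 0.08, while Ecpas rose by 0.39 ± 0.06. Of 4 ubiquitin genes 2 fell and 0 rose, and Ubb, which encodes a chain of ubiquitin repeats, fell by 0.38 ± 0.08. Of 9 genes of ubiquitin activation and shuttles 4 rose and 2 fell. Among them Sqstm1, a receptor that carries ubiquitinated cargo to autophagy, rose by 1.49 ± 0.1. Of the 4 other proteasome activators 1 rose and 2 fell. These counts also stand beside 60.6% of all tested genes called. Psmb7 was the one constitutive catalytic gene called, and it fell by 0.43 ± 0.06. Calls among the 12 NFE2L1 pathway genes were not limited to thapsigargin. In untreated cells at 48 h 8 were higher and 1 lower than at 1 h, beside 62.3% of all tested genes called. With IFN-gamma 4 were higher and 1 lower at 8 h, beside 25.2% called, and 1 higher and 6 lower at 48 h, beside 36.8%.

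**Figure D4:**
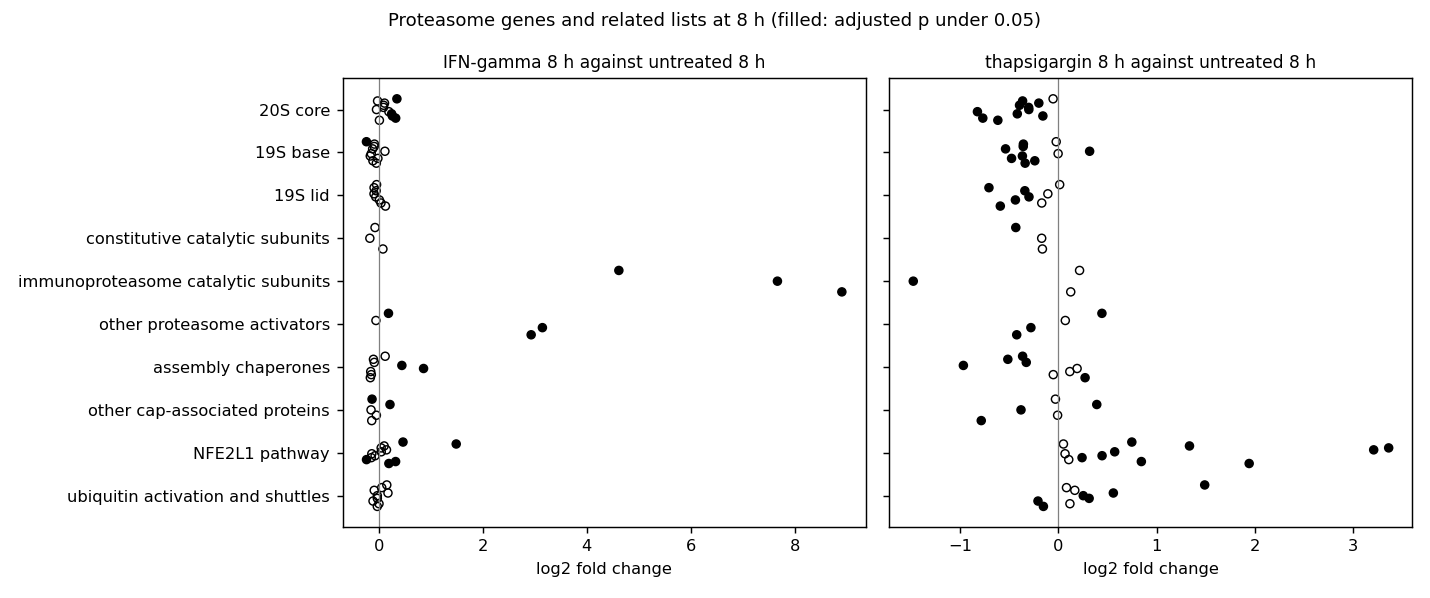
Log2 fold changes at 8 h of the core, base and lid members and of 7 lists of related genes (rows), for IFN-gamma (left) and thapsigargin (right) against untreated cells; the horizontal scales differ. Each point is a gene, filled where the adjusted p is under 0.05; the member furthest from 0 is Psma5 at -0.82 with thapsigargin, while Psmb8 reaches 8.91 with IFN-gamma and Sel1l 3.36 with thapsigargin.

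Set directly against IFN-gamma, with no untreated library in the comparison, thapsigargin gave lower levels of 24 members at 8 h and higher levels of 2, beside 61.4% of all tested genes called, 31.5% lower and 29.9% higher. All 11 core genes were lower, with a median of -0.42, and 12 of 18 cap genes, with a class median of -0.25. Psma2 was lower by 1.09 ± 0.08 (adjusted p = 2.18e-14), with 104 to 118 CPM with thapsigargin against 227 to 246 CPM with IFN-gamma. Psma5 was lower by 1.02 ± 0.09 and Psmd3 by 0.72 ± 0.06 on the log2 scale. The 2 higher members were Adrm1, by 0.22 ± 0.07 (adjusted p = 0.00959), and Psmc6, by 0.2 ± 0.05 (adjusted p = 0.000328). The core to cap ratio was 0.547 ± 0.016 with thapsigargin and 0.679 ± 0.011 with IFN-gamma. At 1 h edgeR's test called 0 members between the treatments, beside 6.09% of all tested genes. At an unadjusted p under 0.05 there were 10 members, beside 15.8% of all tested genes. DESeq2 called 2 members, beside 1022 of the 15135 genes tested.

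Untreated cells show how the same genes moved over time without treatment, while the lineage markers summed to 11900 to 19600 CPM at 48 h, against 7030 to 7730 CPM at 1 h. At 8 h no member differed from 1 h by edgeR's test (4 at an unadjusted p under 0.05, beside 21.8% of all tested genes, 1 by DESeq2, and 6.93% of all tested genes called). Over all 15135 tested genes DESeq2 called 1204. At 24 h 8 members were lower than at 1 h and none higher, beside 28.3% of all tested genes called and 14.4% called lower. They were 4 core genes, Adrm1 and 3 lid genes. This count was 2 to 10 with single libraries left out and 0 among the lower library numbers alone, where fewer libraries were fitted. The share of all tested genes called in those fits is not given. At 48 h 16 members were lower and none higher, beside 62.3% of all tested genes called and 30.4% called lower. These were 6 of 11 core genes, 6 of 10 base genes and 4 of 8 lid genes.

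Psmb4 had the largest fall with time, to 151, 142, 159 and 168 CPM at 48 h, against 199, 222, 242 and 197 CPM at 1 h (-0.47 ± 0.12, adjusted p = 0.00125). Psmd14 had 137, 124, 137 and 141 CPM at 48 h and 167, 170, 184 and 161 CPM at 1 h (-0.34 ± 0.07, adjusted p = 3.74e-05). Psma6, an alpha subunit, had 98.6, 98.2, 97.1 and 95.9 CPM at 48 h, against 118, 119, 131 and 125 CPM at 1 h (-0.34 ± 0.08, adjusted p = 0.000357). None of these 3 had libraries of one time within the range of the other. At 24 h the largest fall was that of Adrm1, with 74.5, 73.9, 65 and 71.9 CPM, against 91.2, 93.1, 90.8 and 83.4 CPM at 1 h (-0.33 ± 0.07, adjusted p = 0.00123). Psma7 had 167, 161, 163 and 138 CPM at 24 h and 194, 186, 198 and 180 CPM at 1 h (-0.27 ± 0.07, adjusted p = 0.00693). Psmd3, a structural lid subunit, had 145, 143, 142 and 127 CPM at 24 h, against 172, 167, 167 and 161 CPM at 1 h (-0.26 ± 0.06, adjusted p = 0.00156). In all 3 the libraries of 24 h lay below those of 1 h. The core and cap medians at 48 h were -0.21 and -0.19 on the log2 scale, and the ratio at 48 h, 0.579 ± 0.01, overlapped that at 1 h, 0.591 ± 0.013.

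The counting of some members carries limits. A single transcript held over 80% of the estimated reads for each of 25 members, while Psma3, Psmd4, Psmd11, Psmd13 and Psmf1 were divided among several. The sources used here do not say whether counting used strand. Exons of Psmd13 overlap those of Sirt3 on the opposite strand over 10.1% of their length. If strand was not used, their reads cannot be told apart there. The same holds for Psmc3 and Slc39a13 over 8.2% of the exons of Psmc3. The transcripts of 10 members aligned to another annotated gene at 95% identity or more over at least 200 bases. The copy with the most reads relative to its member was A730017L22Rik, whose reads equalled 18.5% of those of Psmd11. How reads matching both were counted is not known. Counts of Psmd11 are uncertain to an extent that this share does not measure.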

How the data were processed

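Bulk RNA-seq was measured in 40 libraries, 4 in each of 10 groups named by the labels. The authors deposited a table of gene counts (whole reads per gene) and a table of estimated counts per transcript. Per the submitters' processing notes STAR, featureCounts, kallisto and edgeR were used, and the sources used here give no versions, genome build, annotation or strand setting. The whole gene count table was fitted with edgeR 4.0.16 in R 4.3.3, with TMM scaling, filterByExpr by group and 10 group means with 30 residual degrees of freedom. Quasi-likelihood F tests were adjusted by Benjamini-Hochberg over 15135 genes and called under 0.05. Log2 fold changes used a prior count of 0.125, and their SE is the fold change over the square root of F. CPM are on TMM-scaled library sizes, and marker sums on unscaled ones.

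Alternatives were DESeq2 1.42.0, RLE and upper quartile scaling, no filter, estimated counts rounded and summed per gene, library number ranges, a Y-linked covariate and leaving out single libraries. Per-length levels (RPKM) used transcript estimates, not the exon lengths first planned. Near copies were searched with blastn 2.17.0 in the GENCODE names given, which matched 38872 of 39056 genes. Values in every library were given for the 3 called members with the largest change per direction and for Adrm1, Psmd4, Psmd14, Psmc4, Psma7, Psmb4 and Psmf1. The members and lists were chosen with earlier results of these data known. The 60 replicate pairs all differed beyond sampling noise, with a lowest chi-square per degree of freedom of 5.87. Tests were also run on simulated counts that held no difference between library ranges, and the outcome is not given here. Results for some genes and motifs are not reported here.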

Additional observations from a re-analysis of the deposited data

Results flagged for a closer look

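In 190 sets of 4 libraries the highest or lowest library was compared with the gap among the others, and 13 stood apart; chance gives about 1 in 20, or 9.5. The summed core level was 1938.5 CPM in untreated 1 h replicate 3, against 1773.9 to 1790 CPM in the other 3 libraries, and 1820.7 CPM in IFN-gamma 1 h replicate 3, against 1673.9 to 1685.8 CPM. The core to cap ratio was 0.5641 in untreated 48 h replicate 4, against 0.5827 to 0.5846. Psma2 stood at 199.6 CPM in IFN-gamma 1 h replicate 3, where the others had 174 to 176.2, and Psmd14 at 182.6 CPM in the same library, where the others had 160.8 to 164.4. Psma5 stood at 63.25 CPM in thapsigargin 8 h replicate 4 (others 71.71 to 73.17), 134 CPM in IFN-gamma 8 h replicate 3 (others 144.3 to 145.6) and 99.59 CPM in IFN-gamma 48 h replicate 2 (others 120.7 to 124.1). Psmb3 stood at 104.2 CPM in that last library (others 119.3 to 121.4). Psmc4 stood at 204.2 CPM in untreated 1 h replicate 3 (others 182.9 to 183.7) and 140.7 CPM in IFN-gamma 24 h replicate 2 (others 164.9 to 165.6). Psmd13 stood at 98.73 CPM in IFN-gamma 24 h replicate 2 (others 113.1 to 116), and Psmd4 at 140.5 CPM in IFN-gamma 8 h replicate 2 (others 158 to 160.8).

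Treatment effects that differed between 8 h and 1 h by edgeR's test of the difference itself were found for 14 results. For IFN-gamma the 8 h effect minus the 1 h effect was 0.5393 for Psmb4, 0.4263 for Psma2, 0.2619 for Psma4 and 0.2422 for Psma3 on the log2 scale. For thapsigargin it was -0.5143 for Psmd1, -0.4984 for Psma5, -0.4689 for Psma2, -0.4452 for Psmd3, -0.4406 for Psma1, -0.4401 for Psmd7, -0.4202 for Psmd13, -0.3038 for Psmd12, -0.287 for Psma4 and 0.3593 for Psmc6.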

How the results depend on the processing

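No paired analysis was possible because the labels give no replicate numbers shared between groups. Each core to cap ratio difference kept its sign and changed by less than the pooled SD of the groups compared, under every alternative run. Unadjusted library sizes could not change it. For thapsigargin at 1 h it was -0.02785 in the lower range and -0.0621 in the upper, against -0.04497 over all libraries. No named member changed sign in a comparison with another group where it was called. Signs of members that were not called, and of differences between times, were not followed. Counts of called members moved. Class values did turn with the library range. The core median of IFN-gamma at 8 h (0.11) was -0.06 in the lower range. The cap sum difference of IFN-gamma (-3.6% at 8 h and -1.1% at 24 h) was 2.32% and 4.36% in the upper range. The core median of thapsigargin 8 h minus 1 h (-0.08) was 0.11 in the upper range. Causes were not tested, except that fewer libraries enter the range fits. For counts under settings other than DESeq2, here and above, the share of all tested genes called in the same fit is not given. A change in such a count may therefore come with a change in calls over all genes. With the lower 20 library numbers alone the core genes that rose with IFN-gamma were 0 at 8 h, 0 at 24 h (0 members called) and 1 at 48 h (1 member), thapsigargin at 1 h and untreated 24 h each gave 0, IFN-gamma 8 h minus 1 h gave 0 and thapsigargin 8 h minus 1 h gave 16. With the upper 20 alone 1 cap gene rose at 8 h, 2 members were called at 48 h (1 core), 3 between treatments at 1 h, and the differences between 8 h and 1 h gave 2 for IFN-gamma and 4 for thapsigargin. Counts summed from the isoform table gave 4 members at 24 h (3 core), 1 at 48 h (1 core), 0 for thapsigargin at 1 h, 2 for untreated 24 h and 1 for IFN-gamma 8 h minus 1 h. Fitting only the groups compared gave 4 members at 24 h (3 core), 0 at 48 h (0 core), 14 for thapsigargin at 1 h and 1 for untreated 8 h. No filter gave 4 for thapsigargin at 1 h, 3 for untreated 24 h and 2 for IFN-gamma 8 h minus 1 h. Upper quartile scaling gave 3 core genes at 24 h, 5 for untreated 24 h and 2 between treatments at 1 h, and the Y-linked covariate 3 core genes at 24 h. RLE and DESeq2 each gave 1 cap gene higher at 8 h and 1 member for untreated 8 h, and DESeq2 2 between treatments at 1 h. A block for library range gave 1 cap gene higher at 24 h and 1 member for untreated 8 h.

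Leaving out single libraries gave 2 to 10 members for untreated 24 h (2 without untreated 24 h replicate 4), 0 to 1 for untreated 8 h, 0 to 2 cap genes higher with IFN-gamma at 8 h, 3 to 8 members at 24 h (core 2 to 6) and 2 to 8 at 48 h (core 2 to 7), 4 to 9 for thapsigargin at 1 h, 0 to 1 between treatments at 1 h, 3 to 7 for IFN-gamma 8 h minus 1 h (7 without untreated 8 h replicate 1) and 0 to 1 for 48 h minus 8 h. Of 650 single-member values under other settings 535 held their call and 115 lost it with the same sign, and of 520 with a library left out 423 held it and 97 lost it. Every member had 413 reads or more in every library, so no member was near the limit of detection.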
